A study of Mus musculus with 12 samples.

Results

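A set of 10 genes of calcium- and sugar-binding proteins was followed through 12 RNA-seq libraries of sorted mouse CD4+ T cells: *S100a4*, *S100a6*, *S100a10*, *S100a11* and *S100a13*, *Anxa1*, *Anxa2* and *Anxa5*, and *Lgals1* and *Lgals3*. They were chosen by name, as 10 of the 26608 genes in the count tables, and all 10 were among the 16035 genes with enough reads to be tested (10 or more reads in total in 1 of the groups). The cells were CD4+ and lacked YFP(FOXP3), and came from mice aged 14 weeks, with the spleen and the cervical and inguinal nodes pooled. Libraries came from 4 WT, 4 DKO-moderate and 4 DKO-severe mice. All the mice carried Foxp3Cre, a knock-in that places a YFP-Cre fusion under the *Foxp3* locus. The WT mice had no other engineered allele named in their labels (Foxp3Cre WT), and both DKO groups were also Tet2/3 flox/flox. TET2 and TET3 are the enzymes that oxidise 5-methylcytosine. The DKO mice were split into moderate and severe by how many cells their spleen and lymph nodes held, so DKO-severe is defined by a more advanced expansion and not by another allele. Cre is meant to act in cells that express *Foxp3*, but this driver is regarded as leaky, and deletion in other cells was not tested with these libraries. The paper followed it up by qPCR of *Tet2* in sorted cells and by marking cells that had once expressed *Foxp3*. A YFP(FOXP3)- gate can hold cells that lost FOXP3 as well as conventional T cells, with or without *Tet2* and *Tet3*.

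S100 proteins are small calcium sensors with paired EF-hand motifs that change shape on binding calcium and then dock onto target proteins. Annexins bind acidic phospholipids of membranes when calcium rises, and galectins bind beta-galactoside sugars on cell-surface glycoproteins, often after leaving the cell by a route that bypasses the secretory pathway. In T cells, several of these genes (*S100a4*, *S100a6*, *S100a10*, *S100a11*, *Anxa2*, *Lgals1* and *Lgals3*) are known as being low in naive cells and high in activated, effector and memory cells, and many of them are also abundant in myeloid cells.

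Promoter windows from RefSeq (GRCm38.p6, 250 bases before to 50 bases after the start of the gene) were found for 8 of the 10 genes. Of these, 4 are shown because these genes had the largest differences from WT in DKO-severe (*Anxa2* and *S100a4*) or in DKO-moderate (*S100a11*), or the greatest spread between the DKO-severe mice (*Anxa1*). Capitals mark a TATA box (TATAAA), a GC box (GGGCGG) or an AP-1 site (TGANTCA).
S100a4, chr3:90603520-90603819, plus strand: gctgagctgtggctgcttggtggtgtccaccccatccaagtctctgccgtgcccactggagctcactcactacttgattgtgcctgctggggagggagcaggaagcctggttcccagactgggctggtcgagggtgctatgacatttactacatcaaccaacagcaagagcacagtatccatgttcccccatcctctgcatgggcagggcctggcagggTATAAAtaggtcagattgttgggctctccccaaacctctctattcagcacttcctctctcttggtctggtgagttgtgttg
S100a11, chr3:93520246-93520545, plus strand: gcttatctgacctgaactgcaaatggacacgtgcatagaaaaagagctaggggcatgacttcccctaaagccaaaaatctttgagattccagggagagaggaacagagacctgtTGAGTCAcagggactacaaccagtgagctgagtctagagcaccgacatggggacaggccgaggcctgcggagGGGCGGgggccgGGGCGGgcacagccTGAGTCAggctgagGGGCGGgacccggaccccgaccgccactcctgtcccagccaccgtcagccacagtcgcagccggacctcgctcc
Anxa1, chr19:20390622-20390921, minus strand: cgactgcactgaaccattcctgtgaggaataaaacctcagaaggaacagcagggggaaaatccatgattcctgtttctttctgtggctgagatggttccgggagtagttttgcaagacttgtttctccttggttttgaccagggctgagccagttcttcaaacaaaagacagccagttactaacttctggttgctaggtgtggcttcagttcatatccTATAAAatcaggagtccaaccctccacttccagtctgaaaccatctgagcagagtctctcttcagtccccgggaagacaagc
Anxa2, chr9:69453433-69453732, plus strand: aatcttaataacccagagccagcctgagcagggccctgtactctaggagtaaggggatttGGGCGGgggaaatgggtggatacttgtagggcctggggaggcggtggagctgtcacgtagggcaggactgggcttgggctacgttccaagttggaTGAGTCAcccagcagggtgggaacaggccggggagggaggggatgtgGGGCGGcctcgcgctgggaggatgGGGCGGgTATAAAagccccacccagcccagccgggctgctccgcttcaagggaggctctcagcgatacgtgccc

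The letters TATAAA began 31 bases before the start of *S100a4*, 32 bases before that of *Anxa1* and 17 bases before that of *Anxa2*, all on the strand of the gene. The starts are those of RefSeq and can differ from the gene coordinates given below from GENCODE, as they do for *Anxa2*. Over all 32851 windows of this length, 13.6% held TATAAA on either strand. The GC box was present 3 times in each of the *S100a11* and *Anxa2* windows and 2 times in that of *Lgals3*, against 35.7% of all windows with at least 1. The AP-1 letters, which read the same on both strands, were present 2 times in *S100a11*, at 136 and 38 bases before the start, and once in *Anxa2*, at 95 bases before it. Of all windows, 7.81% held them. A forkhead (FOXO) site, GTAAACA, was searched on both strands and was in none of the 8 windows, against 3.65% of all windows. The number of CpG dinucleotides, the target of DNA methylation, ran from 2 in *S100a4* and 3 in *Anxa1* through 6 in *S100a6*, 13 in *Anxa2*, 14 in *S100a13*, 15 in *S100a11* and 16 in *Anxa5* to 18 in *Lgals3*. The median over all windows was 7, with quartiles of 3 and 20. *S100a4*, *Anxa1* and *Anxa2*, the 3 genes with TATAAA, thus differed in CpG number. These matches describe the letters in the windows, and no binding or methylation was measured here.

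Reads assigned to genes numbered between 29254260 and 42133536 per library. Levels are given as CPM, read counts scaled to a common library size after TMM normalisation. *Cd4* (864 to 1368 CPM) and *Cd3e* (353 to 517 CPM) were high in every library. *Foxp3* ran between 1.01 and 3.10 CPM in WT and between 0.130 and 0.833 CPM in DKO-severe. *Tet2* stood at 43.3 to 62.2 CPM in WT and 56.7 to 65.8 CPM in DKO-severe, and *Tet3* at 167 to 210 CPM and 87.8 to 102 CPM. Counts over whole genes in this mixed gate do not measure how many cells carried the deletion. Markers of other cells differed between the groups and stood furthest apart in 3 libraries. The summed level of 12 neutrophil markers was 2303 CPM in DKO-severe 1 and 862 CPM in DKO-severe 2, against 45.4 and 27.4 CPM in DKO-severe 3 and 4, 13.4 to 36.1 CPM in DKO-moderate and 9.80 to 15.0 CPM in WT. *Ly6g* and *Elane* had no read in any WT library. The sum of 12 monocyte and macrophage markers was 419 and 485 CPM in DKO-severe 1 and 2, 116 and 91.6 CPM in DKO-severe 3 and 4, 33.2 to 95.7 CPM in DKO-moderate, and 219 CPM in WT 3 against 12.4 to 29.0 CPM in the other WT libraries. WT 3 also had 212 CPM of 8 summed B cell markers, against 6.81 to 15.2 CPM in the other WT libraries, 21.5 to 47.5 CPM in DKO-moderate and 70.4 to 383 CPM in DKO-severe. The part of such cells in the differences was not tested beyond the fits with marker terms.

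Together the 10 genes took 0.0463% to 0.0613% of gene reads in WT, 0.107% to 0.146% in DKO-moderate and 0.255% to 0.370% in DKO-severe. The 3 ranges did not overlap. In DKO-severe against WT, all 10 genes were higher and passed the threshold of the edgeR quasi-likelihood test (adjusted p under 0.05 over all tested genes). Of all tested genes, 26.6% were called higher and 25.9% lower in that comparison, and the median log2 fold change was 2.75 over the 10 genes and -0.01 over all tested genes. In 9 of the 10 genes every DKO-severe library lay above every WT library, as did 24.6% of all tested genes. The exception was *Anxa1*.

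In DKO-moderate against WT, 7 of the 10 genes were called higher and none lower, against 12.3% called higher and 4.74% called lower of all tested genes. The median log2 fold change was 1.11 over the 10 genes and 0.00 over all. *S100a13* (adjusted p = 0.0537), *Anxa1* (0.669) and *Anxa5* (0.749) did not pass in the edgeR test. The libraries did not overlap in 6 of the 10 genes, against 14.6% of all tested genes with every DKO-moderate library above every WT library. In DKO-severe against DKO-moderate, 9 genes were called higher, all but *S100a13* (adjusted p = 0.366), against 9.41% called higher and 10.7% called lower of all tested genes. Non-overlap was seen in 7 of the 10 genes, against 9.77% of all. Both DKO groups were compared with the same 4 WT libraries. In bulk RNA, a larger share of cells that express a gene and more RNA per cell cannot be told apart.

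**Figure D1:**
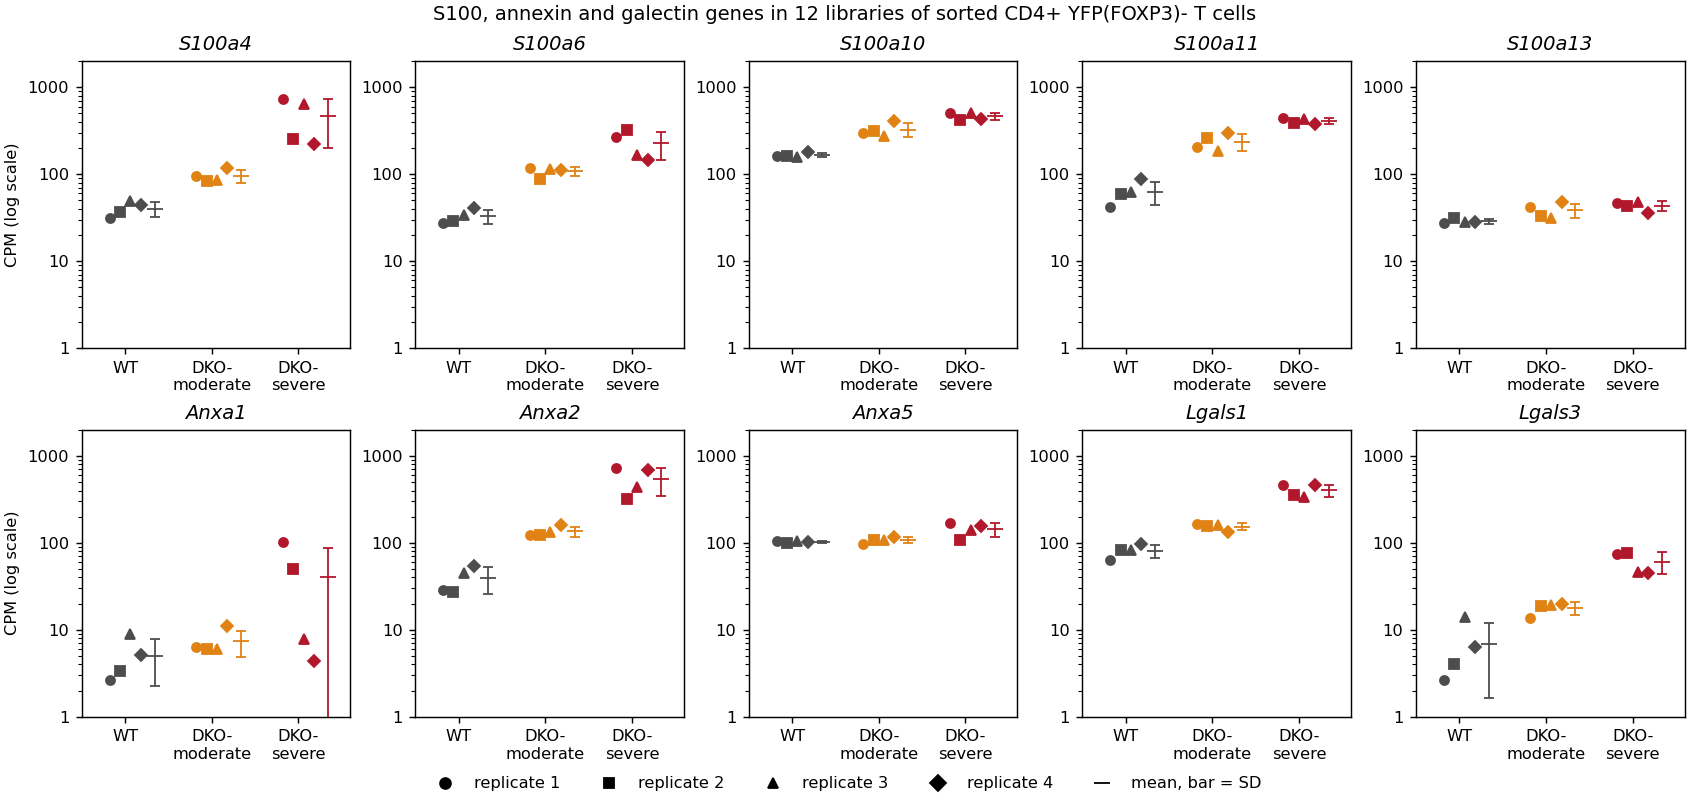
CPM of the 10 genes (log axis) in the 12 libraries, 1 panel per gene, with 1 symbol per replicate number and the group mean with its SD beside the points (for *Anxa1* in DKO-severe the SD exceeds the mean and the bar runs to the lower edge). *S100a11* sits at 41.8 to 87.7 CPM in WT and at 382 to 442 CPM in DKO-severe, while *Anxa1* in DKO-severe runs from 4.40 to 102 CPM and overlaps WT.

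Among the S100 genes, *S100a4* had the largest difference. Its product, also called metastasin, binds non-muscle myosin and promotes cell motility. In the order of mice 1 to 4, *S100a4* measured 31.4, 36.7, 49.2 and 43.7 CPM in the WT libraries, 95.6, 83.7, 85.2 and 117 CPM in the DKO-moderate ones and 733, 253, 643 and 222 CPM in the DKO-severe ones. The 3 groups did not overlap, and the DKO-severe libraries fell into a high pair (1 and 3) and a lower pair (2 and 4). The highest was 3.30 times the lowest, against 1.57 times in WT. The pair with high *S100a4* was not the pair with neutrophil markers, which was 1 and 2. The log2 fold change was 3.52 ± 0.37 (SE) in DKO-severe against WT (adjusted p = 1.95e-05, edgeR), and 1.24 ± 0.34 in DKO-moderate against WT (adjusted p = 0.0272). The DKO-moderate call did not hold without WT 1, WT 2, WT 4 or DKO-moderate 4 (adjusted p of 0.0539 to 0.0835). It was also lost with a term for monocyte and macrophage markers (adjusted p = 0.0696, edgeR) or terms for neutrophil and B cell markers (0.0591). With a term for Y-linked transcripts the adjusted p was 0.0505. *S100a4* lies at chr3:90603771-90606045 on the plus strand (GRCm38) and shares exonic sequence on that strand with the gene model *Gm42674* of GENCODE M21. The annotation behind the counts is not given, so how reads from the shared sequence were counted is not known.

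*S100a6* encodes calcyclin, whose binding partners include annexins and the calcyclin-binding protein CACYBP. It measured 27.2, 28.6, 33.98 and 41.0 CPM in the WT libraries, 119, 88.8, 114 and 111 CPM in the DKO-moderate ones and 269, 320, 168 and 147 CPM in the DKO-severe ones. No group overlapped another. In DKO-severe, libraries 1 and 2 were the high ones, the same pair as for the neutrophil and monocyte marker sums. Against WT, the DKO-severe libraries gave a log2 fold change of 2.79 ± 0.24 (adjusted p = 7.53e-06, edgeR), and without DKO-severe 1 and 2 it was 2.31 (adjusted p = 1.55e-05). With a term for the neutrophil markers in the fit it was 2.01 (adjusted p = 0.00144). Against DKO-moderate the log2 fold change was 1.06 ± 0.23 (adjusted p = 0.00940), 0.58 without DKO-severe 1 and 2 (adjusted p = 0.0411), and 0.37 with the neutrophil term, which did not pass (adjusted p = 0.567). The part of neutrophil RNA in this difference was not tested beyond these fits.

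*S100a10* (p11) differs from the other S100 proteins in having lost calcium binding, and forms a complex with annexin A2 at the plasma membrane. *S100a11*, also called S100C, pairs with annexin A1. *S100a10* measured 160, 163, 159 and 180 CPM in the WT libraries, 301, 317, 278 and 411 CPM in the DKO-moderate ones and 499, 425, 504 and 437 CPM in the DKO-severe ones. *S100a11* measured 41.8, 59.2, 62.8 and 87.7 CPM in the WT libraries, 203, 261, 186 and 296 CPM in the DKO-moderate ones and 442, 389, 426 and 382 CPM in the DKO-severe ones. Neither gene overlapped between any of the groups. *S100a11* had the largest difference of the 10 genes in DKO-moderate against WT, at 1.91 ± 0.21 on the log2 scale (adjusted p = 0.000204, edgeR), and its difference was 2.703 ± 0.21 in DKO-severe (adjusted p = 5.23e-06). *S100a11* thus reached 70.6% of its DKO-severe log2 fold change already in DKO-moderate, against 35.3% for *S100a4*. *S100a10* rose by 0.98 ± 0.12 in DKO-moderate (adjusted p = 0.000343) and 1.49 ± 0.12 in DKO-severe (adjusted p = 5.40e-06). The step from DKO-moderate to DKO-severe was 0.79 ± 0.20 for *S100a11* (adjusted p = 0.0177), which did not pass without DKO-moderate 1 (0.0573) or DKO-moderate 3 (0.0542).

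*S100a13* acts in the release of proteins that lack a signal peptide, such as FGF1 and interleukin-1 alpha. It measured 27.5, 31.5, 28.1 and 28.1 CPM in the WT libraries, 41.7, 33.3, 31.4 and 47.5 CPM in the DKO-moderate ones and 46.8, 43.3, 48.1 and 35.7 CPM in the DKO-severe ones. The DKO-severe libraries all lay above WT but overlapped DKO-moderate. Its log2 fold change of 0.60 ± 0.14 in DKO-severe (adjusted p = 0.00322, edgeR) was the smallest of the S100 genes. That call was lost when a term for neutrophil markers was added (0.46, adjusted p = 0.199) and held without DKO-severe 1 and 2 (0.58, adjusted p = 0.0194).

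**Figure D2:**
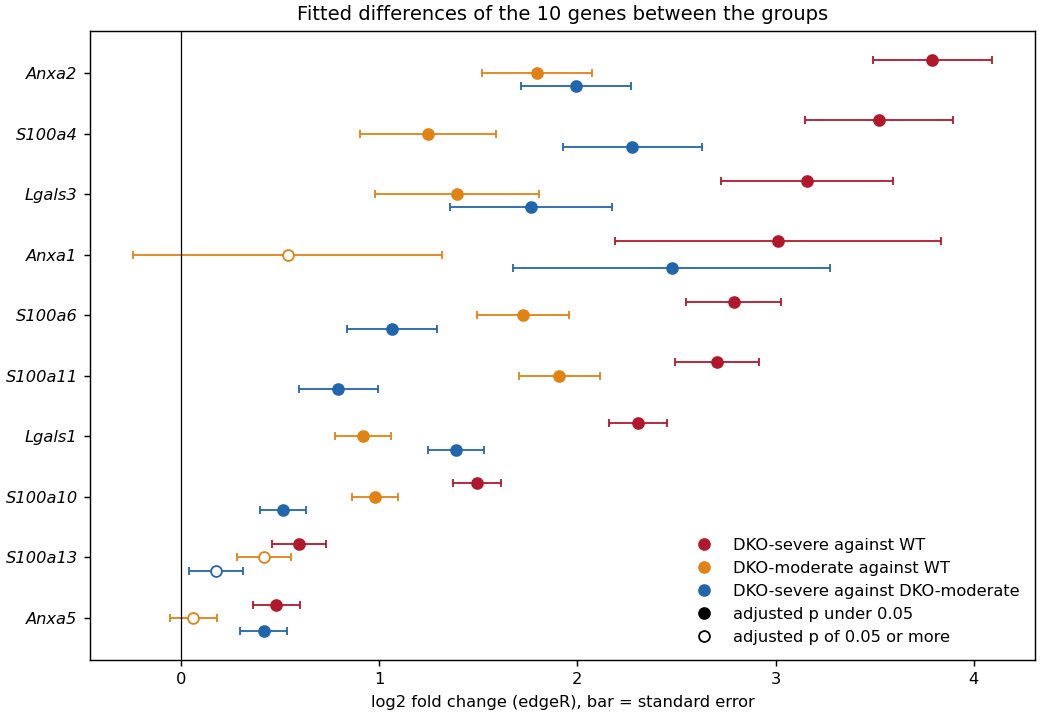
Log2 fold changes of the 10 genes from the edgeR fit over all 12 libraries, with standard errors, for the 3 comparisons. Filled points passed an adjusted p of 0.05 and open points did not. *Anxa2* leads DKO-severe against WT at 3.79, and *Anxa1* has the widest bar, at 3.01 ± 0.82.

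Of the annexins, *Anxa2* showed the largest difference of all 10 genes. Annexin A2 binds phosphatidylinositol bisphosphate and actin, and with S100A10 acts as a cell-surface receptor of plasminogen. *Anxa2* measured 29.0, 27.0, 45.2 and 54.6 CPM in the WT libraries, 122, 125, 134 and 162 CPM in the DKO-moderate ones and 718, 322, 436 and 680 CPM in the DKO-severe ones. The groups were separate, and the 2 libraries poorest in neutrophil markers, DKO-severe 3 and 4, lay inside the range of the other 2. The log2 fold change was 1.80 ± 0.28 in DKO-moderate (adjusted p = 0.00133, edgeR), 3.79 ± 0.30 in DKO-severe against WT (adjusted p = 5.36e-06) and 1.99 ± 0.28 between the DKO groups (adjusted p = 0.00275). Without DKO-severe 1 and 2 the DKO-severe value was 3.88, and with the neutrophil term it was 3.72. *Anxa2* lies at chr9:69453620-69491795 on the plus strand, and *Gm16144*, which overlaps its exons on the other strand, had no read in any library.

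*Anxa1* behaved differently from *Anxa2*. Annexin A1 is a glucocorticoid-induced protein that signals through formyl peptide receptors and is abundant in neutrophils and monocytes. *Anxa1* measured 2.67, 3.39, 8.94 and 5.19 CPM in the WT libraries, 6.27, 5.99, 6.06 and 11.02 CPM in the DKO-moderate ones and 102, 49.6, 7.78 and 4.40 CPM in the DKO-severe ones. Only DKO-severe 1 and 2 stood above the other libraries, and DKO-severe 3 and 4 lay within the WT range. The order of the DKO-severe libraries was the order of their neutrophil marker sums. *S100a8*, an S100 gene of neutrophils that is itself part of that sum, stood in the same order there, at 439.6, 169, 4.09 and 1.96 CPM. The fitted log2 fold change of *Anxa1* was 3.01 ± 0.82 in DKO-severe against WT (adjusted p = 0.00890, edgeR). It was 0.31 without DKO-severe 1 and 2 (adjusted p = 0.622), and -1.59 with a term for neutrophil markers (adjusted p = 0.0770). With limma voom it was 1.80 (adjusted p = 0.0885). Against DKO-moderate it was 2.48 ± 0.80 (adjusted p = 0.0472), a call lost when any 1 was left out of WT 1, WT 2, WT 4, the 4 DKO-moderate libraries, DKO-severe 1 or DKO-severe 2 (adjusted p of 0.0550 to 0.174).

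*Anxa5* encodes the phosphatidylserine-binding annexin used to stain dying cells. It was nearly level across WT, at 105, 98.8, 105 and 102 CPM, and stood at 96.6, 107, 109 and 117 CPM in DKO-moderate. In DKO-severe it stood at 170.1, 107, 141 and 155 CPM, with DKO-severe 2 close to the upper WT libraries. The log2 fold change was 0.06 ± 0.12 in DKO-moderate, and 0.48 ± 0.12 in DKO-severe (adjusted p = 0.00512, edgeR). The call in DKO-severe held without DKO-severe 1 and 2 (0.57, adjusted p = 0.00107) and was lost with the neutrophil term (0.46, adjusted p = 0.142). The step between the DKO groups, 0.42 ± 0.12 (adjusted p = 0.0292), did not pass without DKO-moderate 1, DKO-moderate 3, DKO-severe 1 or DKO-severe 4 (adjusted p of 0.0546 to 0.0883).

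Both galectin genes were higher in both DKO groups. Galectin-1 is a dimeric lectin that binds CD43, CD45 and CD7 on T cells and can trigger their death. *Lgals1* measured 63.4, 83.6, 81.9 and 96.7 CPM in the WT libraries, 165, 155, 162 and 133 CPM in the DKO-moderate ones and 458, 351.5, 340.3 and 460.1 CPM in the DKO-severe ones. The groups did not overlap, and DKO-severe 4, the library with the fewest neutrophil markers of its group, was the highest. *Lgals1* had the smallest adjusted p of the 10 genes in DKO-severe against WT, at a log2 fold change of 2.31 ± 0.15 (adjusted p = 3.10e-06, edgeR). It was 0.92 ± 0.14 in DKO-moderate (adjusted p = 0.00133) and 1.39 ± 0.14 between the DKO groups (adjusted p = 0.00129). *Lgals1* was called in all 3 comparisons under each of the alternatives that were fitted, the marker terms and the left-out libraries included.

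Galectin-3, the chimera-type galectin, carries a long tail that lets it form lattices on branched N-glycans, and macrophages express it strongly. *Lgals3* measured 2.64, 4.03, 14.1 and 6.29 CPM in the WT libraries, 13.6, 18.7, 19.5 and 19.6 CPM in the DKO-moderate ones and 75.2, 75.5, 46.5 and 45.3 CPM in the DKO-severe ones. WT 3, the WT library with macrophage and B cell markers, was the highest of its group and reached above DKO-moderate 1. DKO-severe 1 and 2 were the high pair of DKO-severe, as for *S100a6*. The log2 fold change of *Lgals3* was 3.16 ± 0.43 in DKO-severe (adjusted p = 0.000106, edgeR) and 2.79 without DKO-severe 1 and 2 (adjusted p = 0.00119). With the monocyte and macrophage term it was 2.12 (adjusted p = 0.00103). In DKO-moderate it was 1.39 ± 0.41 (adjusted p = 0.0367), which did not pass on leaving out WT 1, WT 2, WT 4, DKO-moderate 2, DKO-moderate 3 or DKO-moderate 4 (adjusted p of 0.0614 to 0.104) and which was larger, at 2.04 and past the threshold, without WT 3 and DKO-severe 1 and 2.

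The 10 genes were also fitted with a term for the markers of other cells. With the neutrophil term, 7 of the 10 genes passed in DKO-severe against WT, 7 in DKO-moderate against WT and 2 (*Anxa2* and *Lgals1*) in DKO-severe against DKO-moderate. Over all 16035 genes the calls went from 8428 to 3135, from 2734 to 2362 and from 3217 to 184 in these comparisons. In the last one several log2 fold changes kept most of their size while their standard errors grew. *Anxa2* went from 1.99 ± 0.28 to 1.93 ± 0.40, *S100a4* from 2.28 ± 0.35 to 1.87 ± 0.499, *S100a10* from 0.51 ± 0.12 to 0.45 ± 0.19 and *Anxa5* from 0.42 ± 0.12 to 0.40 ± 0.19. The values that fell by more were those of *S100a6* (1.06 to 0.37), *Lgals3* (1.76 to 0.81) and *Anxa1* (2.48 to -1.77). The small value of *S100a13*, which passed in neither fit, went from 0.18 to 0.06. With the monocyte and macrophage term, 3 genes (*Anxa2*, *Lgals1* and *S100a4*) passed there, and 887 of all genes. Without DKO-severe 1 and 2, which leaves 2 libraries in that group, 9 of the 10 genes passed in DKO-severe against WT, 7 in DKO-moderate against WT and 6 in DKO-severe against DKO-moderate, beside 6612, 2847 and 2114 of 15630 genes tested.

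**Figure D3:**
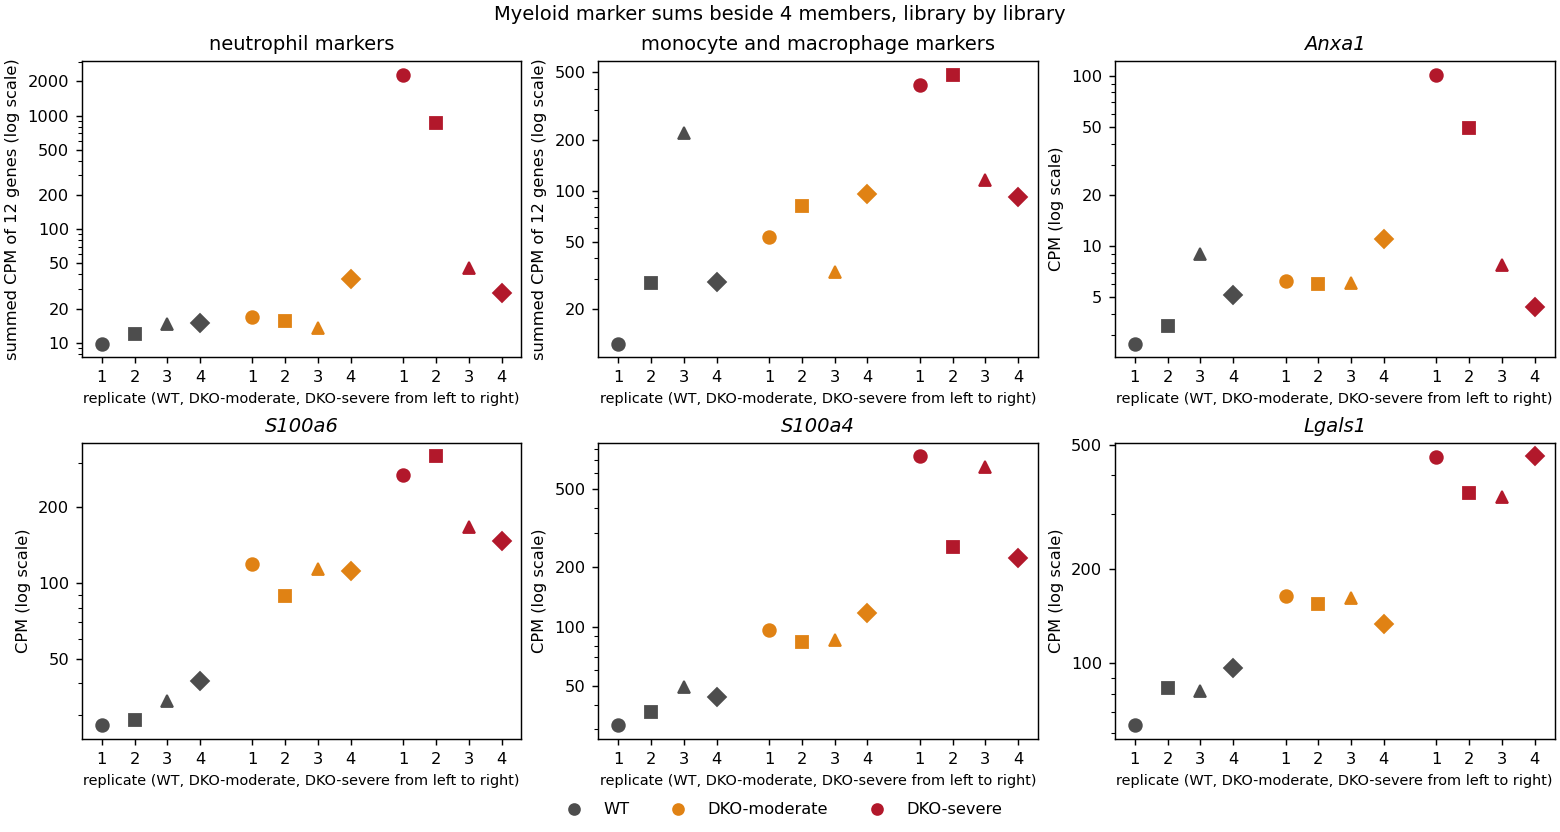
Summed CPM of 12 neutrophil markers and of 12 monocyte and macrophage markers, and CPM of *Anxa1*, *S100a6*, *S100a4* and *Lgals1*, in the 12 libraries (log axes). *Anxa1* (102, 49.6, 7.78 and 4.40 CPM) falls in the order of the neutrophil sum over the 4 DKO-severe libraries, while *Lgals1* is highest in DKO-severe 4 (460.1 CPM).

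Levels can be compared between genes only per length, here as CPM per kilobase of annotated exon. The length used was that of all annotated exons of a gene together, which can exceed that of its main transcript. The order of the genes depends on this choice. In WT the order was *S100a10* (137 ± 8.14 CPM per kilobase, SD, n = 4), *S100a11* (123 ± 37.1), *Lgals1* (90.1 ± 15.2), *S100a4* (68.9 ± 13.4), *Anxa5* (57.9 ± 1.72), *S100a13* (40.3 ± 2.53), *S100a6* (23.9 ± 4.57), *Anxa2* (10.4 ± 3.54), *Lgals3* (3.65 ± 2.76) and *Anxa1* (1.73 ± 0.963). The ranges of neighbours overlapped from *S100a10* down to *Anxa5* and between *Anxa2*, *Lgals3* and *Anxa1*. In DKO-severe *S100a11* (802 ± 57.2) and *S100a4* (792 ± 450.4) were the highest and overlapped, followed by *Lgals1* (446 ± 72.5) and *S100a10* (385 ± 33.9). *S100a6* (165 ± 60.1) and *Anxa2* (144 ± 51.2) then stood above *Anxa5* (80.7 ± 15.0) and *S100a13* (60.8 ± 7.76) by their means, whereas in WT both stood below them. *Lgals3* (32.6 ± 9.16) and *Anxa1* (14.0 ± 15.6) remained the lowest. DKO-moderate had the order *S100a11* (462 ± 99.9), *S100a10* (269 ± 48.2), *Lgals1* (170.4 ± 15.8) and *S100a4* (163 ± 26.4) at the top, with *Anxa1* (2.52 ± 0.845) at the bottom. By the means, *Anxa5* moved from the fifth place in WT to the seventh in DKO-severe, *Anxa2* from the eighth to the sixth, and *Anxa1* was the last in each group.

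The S100 genes lie together on chromosome 3, which allowed the 5 genes to be read beside their neighbours. Of 13 S100 genes of the lists on that chromosome, *S100a10* (chr3:93555080-93564643) and *S100a11* (chr3:93520488-93526287) form a pair 28.8 kb apart, and the other 11 lie 2825 kb away. There *S100a4* lies 2.48 kb before *S100a5*, which lies 1.10 kb before *S100a6*. *S100a5* had no read in WT, 7 to 22 reads per library in DKO-moderate and 37 to 103 in DKO-severe, and was called higher in both DKO groups (adjusted p = 0.00131 and 4.12e-05, edgeR). On the other side of *S100a4*, *S100a3* had 7 to 9 reads per library in WT and 37 to 95 in DKO-severe (adjusted p = 3.81e-05). *S100a1* lies on the minus strand, with 42 bases between its start and the start of *S100a13* on the plus strand. It had 10 to 29 reads per library in WT and 83 to 295 in DKO-severe (adjusted p = 0.000300, edgeR). The group means of these 3 neighbours stayed under the 5 CPM set for naming genes (*S100a1* reached 7.06 CPM in DKO-severe 4), and they are named, after their values were seen, because they adjoin one of the 10 genes. *S100a14* did not pass in any comparison (2 to 9 reads per library), and *S100a16* and *S100a7a* never exceeded 3 reads.

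Further along, *S100a8* and *S100a9* encode the calprotectin subunits of neutrophils. *S100a8* had at most 15 reads in a WT library and 13550, 5547, 172 and 82 reads in DKO-severe 1 to 4. *S100a9* had at most 9 reads in WT and 15203, 6169, 228 and 75 in DKO-severe. This order was that of the neutrophil marker list, which holds both genes. Over the 11 other S100 genes, 6 could be tested, and 5 were called higher in DKO-severe against WT and 1 in DKO-moderate against WT. The shares called higher over all tested genes were 26.6% and 12.3%.

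Other annexin and galectin genes were mixed. Of 9 other annexins, 6 were called higher in DKO-severe against WT and none lower, against 26.6% and 25.9% of all tested genes. *Anxa4* rose from 2.01 ± 0.186 CPM in WT (SD, n = 4) to 8.59 ± 2.74 in DKO-moderate and 31.1 ± 9.49 in DKO-severe. Its log2 fold changes were 2.10 ± 0.26 (adjusted p = 0.000437, edgeR) and 3.95 ± 0.28 (adjusted p = 4.05e-06) in that order. Its lowest DKO-severe library, DKO-severe 2, stood at 22.5 CPM. *Anxa8* had no read in WT, at most 4 reads in a DKO-moderate library, and 60, 126, 517 and 151 reads in DKO-severe 1 to 4. *Anxa7*, which takes part in membrane fusion, rose by 0.48 ± 0.15 in DKO-severe (adjusted p = 0.0184). *Anxa6* (612 ± 36.6 CPM in WT and 524 ± 68.1 CPM in DKO-severe, adjusted p = 0.257), and *Anxa11* (52.8 ± 6.59 and 54.2 ± 3.42 CPM, adjusted p = 0.796) did not pass.

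Of 7 other galectin genes with a row, 6 were tested, with 3 called higher and 2 lower in DKO-severe against WT. Over all tested genes these shares were 26.6% and 25.9%. The galectin-related *Lgalsl* stood at 4.05, 5.32, 4.197 and 8.23 CPM in WT and at 40.0 to 54.7 CPM in DKO-severe (log2 fold change of 3.09 ± 0.32, adjusted p = 1.87e-05, edgeR), and was already at 26.3 ± 11.8 CPM in DKO-moderate (2.27 ± 0.31, adjusted p = 0.000772). *Lgals9*, a tandem-repeat galectin that binds TIM-3, went the other way. Its mean fell from 192 ± 15.5 CPM (WT) to 72.3 ± 16.1 CPM (DKO-severe), with -1.404 ± 0.18 on the log2 scale (adjusted p = 6.06e-05). *Lgals8* fell by 0.66 ± 0.14 on the log2 scale (adjusted p = 0.00219). Both also fell between DKO-moderate and DKO-severe (adjusted p = 0.00466 and 0.0340), and neither passed in DKO-moderate against WT. *Lgals4* (8.64 ± 0.820 and 6.69 ± 1.34 CPM in WT and DKO-severe) did not pass.

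**Figure D4:**
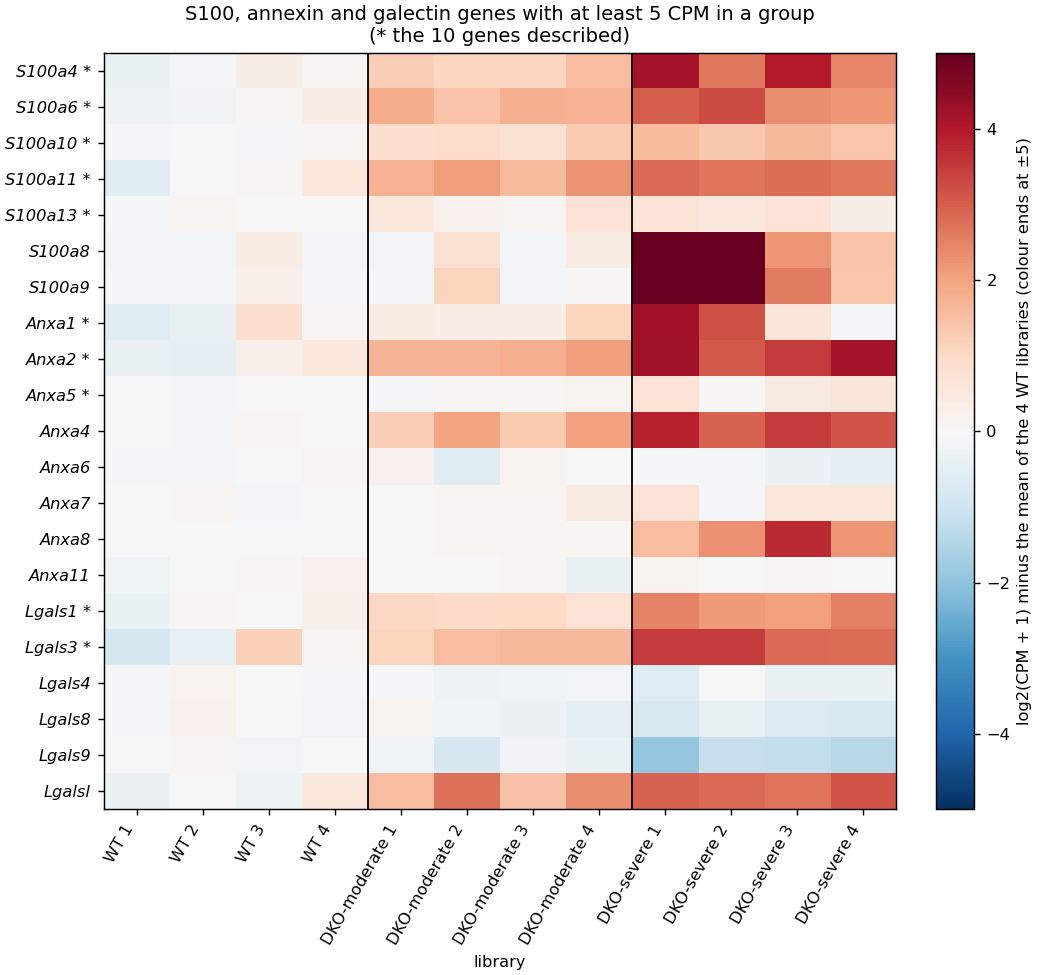
Heat map of log2(CPM + 1) minus the mean of the 4 WT libraries, for the 10 genes (asterisks) and the other S100, annexin and galectin genes whose mean reached 5 CPM in any group, in the 12 libraries. *S100a8* and *S100a9* are darkest in DKO-severe 1 and 2, *Anxa4* and *Lgalsl* are red in all 4 DKO-severe libraries (22.5 to 43.6 CPM and 40.0 to 54.7 CPM), and *Lgals9* and *Lgals8* are blue there.

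Partners and receptors of these proteins did not move as 1 group. Of 17 such genes, all tested, 8 were called higher and 5 lower in DKO-severe against WT, with a median log2 fold change of 0.14 against -0.01 over all tested genes. In DKO-moderate 2 were called higher and none lower. Over all tested genes the shares higher and lower were 26.6% and 25.9% in DKO-severe and 12.3% and 4.74% in DKO-moderate. *Ahnak*, the giant scaffold protein that binds the annexin A2-S100A10 complex, stood at 239, 311, 418 and 421 CPM in WT and at 1693, 1202, 1825 and 1459 CPM in DKO-severe (log2 fold change of 2.15 ± 0.27, adjusted p = 6.08e-05, edgeR). In DKO-moderate it stood at 741, 789, 794 and 336 CPM, and DKO-moderate 4 lay in the WT range although that library was the highest of its group for 8 of the 10 genes. *Tlr4*, a receptor for S100A8 and S100A9, stood at 0.488 to 1.78 CPM in WT and at 11.2, 21.9, 25.4 and 27.8 CPM in DKO-severe 1 to 4 (4.18 ± 0.68, adjusted p = 0.000320). The library with the most neutrophil markers had the lowest *Tlr4* of its group. *Ager*, which encodes the S100 receptor RAGE, fell by 1.32 ± 0.21 (adjusted p = 0.000308). *Cd7*, a galectin-1 receptor, fell by 0.80 ± 0.23 (adjusted p = 0.0103).

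The 10 genes were read beside genes of effector and memory T cells and of naive T cells. Of 20 effector and memory genes, 11 were called higher and 3 lower in DKO-severe against WT, with a median log2 fold change of 0.69, and 7 higher and 2 lower in DKO-moderate. The shares of all tested genes higher and lower were 26.6% and 25.9% in DKO-severe, and 12.3% and 4.74% in DKO-moderate. *Ahnak*, also on this list, and *Capg*, an actin-capping protein (58.0 ± 1.30 CPM in WT and 245 ± 51.4 CPM in DKO-severe, log2 fold change of 2.08 ± 0.19, adjusted p = 9.87e-06, edgeR), had the largest rises. *Ly6c1* (-3.28 ± 0.39, adjusted p = 4.27e-05) and *Lmna* (-1.11 ± 0.42, adjusted p = 0.0411) fell. Of 15 naive T cell genes, 14 were called lower in DKO-severe and none higher, with a median of -1.94. In DKO-moderate 7 were lower, with a median of -0.84. The largest falls were in *Dapl1* (76.0 ± 6.87 to 7.18 ± 4.21 CPM, -3.40 ± 0.58, adjusted p = 0.000465) and *Actn1* (584 ± 9.34 to 62.2 ± 26.6 CPM, -3.23 ± 0.41, adjusted p = 6.26e-05). The lowest library of these 2 genes was DKO-severe 1 (0.876 CPM of *Dapl1* and 22.5 CPM of *Actn1*). In that library 5 of the 10 genes were the highest of the group, and so was the neutrophil marker sum. The sum of all 15 naive T cell genes was instead lowest in DKO-severe 4 (2504 CPM, against 2539 CPM in DKO-severe 1). In DKO-severe 4, 6 of the 10 genes were the lowest of the group.

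Of the marker lists, 12 of 12 neutrophil genes, 4 of 12 monocyte and macrophage genes, 1 of 8 B cell genes, 4 of 8 plasma cell genes, 1 of 6 NK cell genes and 3 of 7 erythroid genes were called higher in DKO-severe against WT, and none of them lower. The shares over all tested genes were 26.6% higher and 25.9% lower. The B cell and NK cell counts were under the share called higher. Under the alternatives the number called higher ran from 0 to 12 for neutrophil genes, 0 to 12 for monocyte and macrophage genes, 0 to 8 for B cell genes (with 0 to 3 lower) and 3 to 7 for plasma cell genes. These alternatives include fits whose marker term is the mean of the neutrophil, monocyte and macrophage, or B cell list itself. Such a term takes out the differences of its own list, so low counts there are built into the fit. Of 7 T cell genes 2 were higher and 2 lower, of 2 CD8 T cell genes 1 was lower, and of 4 Y-linked genes none was called. Sums of the 4 Y-linked genes were 0 CPM in WT 2 and DKO-moderate 2, 0.0265 in DKO-moderate 4 and 0.571 in DKO-severe 3. They were 370 to 556 CPM in the other libraries, so the sex of the mice appeared mixed in each group. The part of sex in the differences was not tested beyond a fit with a term for these genes. The plasma cell list includes *Irf4* and *Xbp1*, which activated T cells also express.

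Ratios of read counts within a library do not depend on how libraries were scaled. The ratio of *Anxa2* to *S100a10*, whose products form 1 complex, was 0.181, 0.165, 0.284 and 0.303 in WT, 0.406, 0.393, 0.482 and 0.394 in DKO-moderate and 1.44, 0.757, 0.864 and 1.56 in DKO-severe. The 3 groups were separate. The geometric mean went from 0.225 in WT through 0.417 to 1.10, a log2 difference of 2.29 between DKO-severe and WT, 0.89 between DKO-moderate and WT and 1.3996 between the DKO groups. Each gave p = 0.0286 in a two-sided exact permutation test, the smallest that 4 against 4 libraries allow, and 0.0643 after adjustment over 9 tests, which is also the smallest reached.

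The ratio of *Lgals1* to *Lgals3* was 24.0, 20.7, 5.79 and 15.4 in WT, 12.2, 8.29, 8.31 and 6.82 in DKO-moderate and 6.09, 4.66, 7.32 and 10.2 in DKO-severe. The groups overlapped through WT 3, and no comparison passed (p = 0.114 for DKO-severe against WT, exact permutation test). Between DKO-moderate and WT the log2 difference was -0.74 with all libraries and -1.18 without WT 3. The ratio of *S100a4* to *S100a6*, neighbours on chromosome 3, was 1.15, 1.28, 1.45 and 1.07 in WT and 0.805, 0.942, 0.750 and 1.05 in DKO-moderate. These groups did not overlap (log2 difference of -0.48, p = 0.0286, exact permutation test, and 0.0643 after adjustment). In DKO-severe the ratio was 2.72, 0.790, 3.83 and 1.51, so that DKO-severe 2 lay under WT and DKO-severe 1 and 3 above it, and the comparison with WT did not pass (p = 0.314, exact permutation test).

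**Figure D5:**
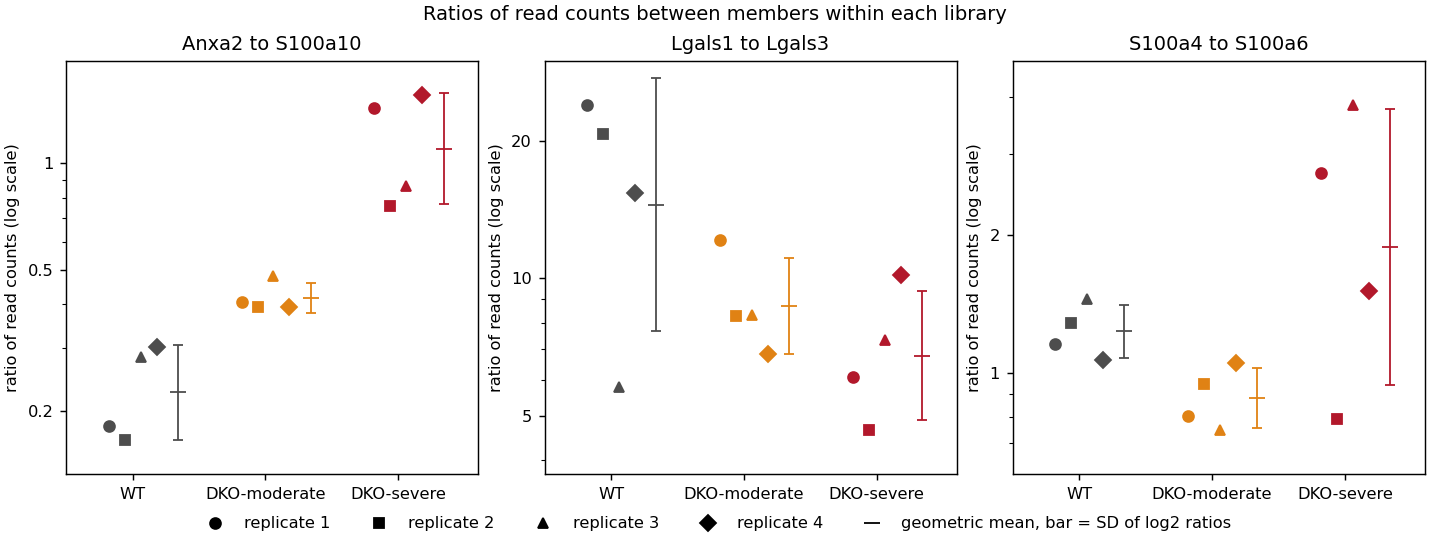
Ratios of read counts of *Anxa2* to *S100a10*, *Lgals1* to *Lgals3* and *S100a4* to *S100a6* in each library (log axes), with geometric means and the SD of the log2 ratios. The *Anxa2* to *S100a10* ratio separates the 3 groups (0.165 to 0.303, 0.393 to 0.482 and 0.757 to 1.56), and the *S100a4* to *S100a6* ratio in DKO-severe spans 0.790 to 3.83.

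How alike the genes were was measured as the mean absolute difference of centred log2 CPM over the 12 libraries. Among the 45 pairs of the 10 genes, *S100a13* with *Anxa5* (0.23) and *S100a6* with *S100a11* (0.32) were the closest. *Anxa2* with *Anxa5* (1.14) were the farthest apart. *Anxa2* and *S100a10*, the protein partners, took place 29 (0.82), since *S100a10* changed less, and *Anxa2* was closer to *S100a4* (0.42). Among 10500 other genes with at least 5 CPM in a group, those nearest to the mean profile of the 10 genes were *Pglyrp1* (0.14), *Myo1c* (0.17), *Dstn* (0.19), *Hip1r* (0.19) and *Ehd4* (0.20). Nearest to *S100a4* were *Adam8* (0.30), *Adap1* (0.33) and *Espn* (0.33), nearest to *Anxa2* were *Nusap1* (0.21), *E2f8* (0.22) and *Tpx2* (0.22), and nearest to *Lgals1* were *Arhgap21* (0.16), *Trps1* (0.19) and *Plp2* (0.21). These distances describe profiles that share the same libraries.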

How the data were processed

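RNA was sequenced from CD4+ YFP(FOXP3)- T cells of 12 mice, 4 per group, with 1 library per mouse. The deposited values are raw read counts per gene, which the authors made with STAR 2.7.11 on mm10 and htseq-count, keeping reads with a single position and using the strand setting of a directional kit. The annotation behind the counts is not given in the sources used here, and coordinates and exon lengths were taken from GENCODE M21 (GRCm38), in which 22469 of the 26608 symbols were found. Rows without a gene (18.5% to 23.7% of reads) were left out.

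Counts were fitted with edgeR 4.0.16 (TMM, quasi-likelihood F test, R 4.3.3), all 12 libraries in 1 fit without covariates, over 16035 genes. P-values were adjusted over all of them by the Benjamini-Hochberg method with a threshold of 0.05. The fit was tested on simulated data. Ratios were compared by exact permutation tests (scipy 1.17.1). The alternatives were DESeq2 1.42.0, limma 3.58.1 (voom), other scalings and filters, marker terms, the replicate number as a block, and each library left out. Fits without DKO-severe 1 and 2, or also without WT 3, were added after the data were seen.

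The 10 genes and all lists were chosen with earlier results of these data known. Named were the 10 genes, other family genes of at least 5 CPM in a group, and up to 2 rises and 2 falls of the partner, effector and memory, and naive T cell lists. Older symbols were matched for *Lgalsl* and 5 other genes. No 2 libraries agreed within sampling noise (lowest chi-square of a replicate pair over its degrees of freedom, 22.9). The labels tie each library to a mouse, so p-values measure the spread between mice.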

Additional observations from a re-analysis of the deposited data

Results flagged for a closer look

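In 4 of 39 groups of 4 values (10 genes and 3 ratios in 3 groups), 1 library lay far from the other 3 by Dixon's criterion, which chance alone gives in about 1 of 20 groups. *S100a13* stood at 31.5 CPM in WT 2, against 27.5 to 28.1 CPM in the other WT libraries. *Anxa1* stood at 11.02 CPM in DKO-moderate 4, against 5.99 to 6.27 CPM in the other libraries of its group, and that library also had the highest neutrophil marker sum of DKO-moderate (36.1 CPM). *Lgals3* stood at 13.6 CPM in DKO-moderate 1, against 18.7 to 19.6 CPM. The ratio of *Anxa2* to *S100a10* was 0.482 in DKO-moderate 3, against 0.393 to 0.406.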

How the results depend on the processing

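Of 810 values of the 10 genes under other settings, 727 kept their direction and their side of the threshold, 71 no longer passed, 6 came to pass and 6 reversed. All 6 reversals were in *Anxa1*. For DKO-severe against WT its fitted value became -1.59 with a neutrophil term and -1.52 with neutrophil and B cell terms. Against DKO-moderate it became -1.77 and -1.75 under the same terms, -0.23 without DKO-severe 1 and 2, and -0.27 without those and WT 3. The cause was not tested.

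In DKO-severe against DKO-moderate 9 of the 10 genes passed, and this number moved to 2 with the neutrophil term, 3 with the monocyte and macrophage term, 1 with neutrophil and B cell terms, 5 without DKO-severe 1 and 2 and WT 3, and 4 at an adjusted p under 0.01. Under these terms the values of *Anxa2*, *S100a4*, *S100a10* and *Anxa5* kept most of their size while their standard errors grew. *Anxa2* stood at 1.93 (adjusted p = 0.0565, edgeR) under neutrophil and B cell terms. Standard errors did not grow for every gene. That of *Lgals3* went from 0.41 to 0.26 with the monocyte and macrophage term, and its value went from 1.76 to 0.91. That of *Anxa1* went from 0.80 to 0.55 with the neutrophil term. The number passing ran from 6 to 9 with single libraries left out. In DKO-severe against WT it ran from 7 to 10 over all alternatives and was 10 without any 1 library, and in DKO-moderate against WT it ran from 5 to 8. The 6 gains were all of *S100a13* in DKO-moderate against WT. Scaling by library size alone brought the median over all tested genes to 0.18 in DKO-severe against WT, and left all 10 genes higher.

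With the replicate number as a block, 9, 7 and 7 of the 10 genes passed in DKO-severe against WT, DKO-moderate against WT and DKO-severe against DKO-moderate, over all genes 7794, 2201 and 2321. The deviations of same-numbered libraries had a median correlation of -0.03 (-0.27 to 0.21, 12 pairs), against 0.01 (-0.32 to 0.30, 36 pairs) for differently numbered ones. The numbers were therefore taken as names of mice, although so few pairs cannot exclude a pairing.

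Leaving out 1 library raised the smallest possible p of the ratios to 0.0571, so none could pass. The log2 difference of *Anxa2* to *S100a10* then ran from 2.12 to 2.47 in DKO-severe against WT, from 0.74 to 1.03 in DKO-moderate against WT and from 1.23 to 1.58 between the DKO groups, and that of *S100a4* to *S100a6* in DKO-moderate against WT from -0.57 to -0.41. Within the chosen set of genes, *Anxa1* had the largest standard error in DKO-severe against WT (0.82, edgeR). It had 93 to 311 reads per WT library and ran from 4.40 to 102 CPM between the DKO-severe libraries. *S100a3*, outside the set, had 7 to 9 reads per WT library and a smaller standard error (0.35). The cause of the difference in precision was not tested.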
